A study of Mus musculus with 23 samples.

Results

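The genes described here encode molecular chaperones and their partners: the heat shock proteins, the J-domain proteins of the DNAJ families and the subunits of the cytosolic chaperonin TRiC/CCT. A gene was a member where its symbol began with Hsp and a further letter or digit, with Dnaja, Dnajb or Dnajc, or with Cct2 to Cct8, or was Tcp1. This gave 85 of the 22619 named genes in the deposited transcript files. By family they were 3 HSP90 genes, 14 HSP70 and HSP110 genes, 10 TRiC/CCT genes, 2 chaperonin genes of mitochondria, 8 small heat shock genes, 4 DNAJA, 13 DNAJB and 28 DNAJC genes. The other 3 (Hspg2, Hspbap1 and Hspbp1) matched by name only and encode no chaperone of these families, and Hspb11, counted with the small heat shock genes, is better known as a gene of intraflagellar transport.

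Oocytes of B6D2F1 mice at the germinal vesicle (GV) stage were injected with siRNAs against Etv5, Mlx or Rfx1 (siEtv5, siMlx, siRfx1) or with a control siRNA (siCtrl), matured in vitro and fertilized. Embryos were then profiled by RNA-seq as zygotes and as 2-cell embryos, which the labels place at 14 and 36 h after in vitro fertilization and the methods of the paper at somewhat later hours after sperm injection. There were 23 libraries in 8 groups, 2 of siEtv5 2-cell embryos and 3 of every other group. The siRNAs were mixtures of several per target gene, all embryos, siCtrl included, had been injected and matured outside the ovary, and the paper's methods say that experiments were repeated within a group without saying whether its libraries came from separate collections of oocytes, so p-values measure the spread between libraries, part of which may be technical.

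HSP70 proteins bind exposed stretches of unfolded proteins in a cycle driven by ATP. J-domain proteins bring clients to HSP70 and trigger hydrolysis, nucleotide exchange factors, HSP110 proteins among them, release the client, and HSP90 takes over late steps of folding for many kinases and receptors. TRiC/CCT is a double ring that folds actin and tubulin, HSP60 with HSP10 does the like in mitochondria, and BiP and GRP94 serve the endoplasmic reticulum (ER). In the mouse, the fertilized egg starts with maternal transcripts stored in the oocyte, most of which are cleared while the embryonic genome is activated in steps that reach full scale in the 2-cell embryo, and inducible HSP70 genes are known as early embryonic transcripts.

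All values are FPKM, fragments scaled by transcript length and library size, which allow levels to be compared between genes. The depth, as total aligned bases, was 404 to 991 Mb in 20 libraries and 119 to 174 Mb in the 3 siRfx1 2-cell libraries, in which 7378 to 8071 genes reached 1 FPKM against 8354 to 11135 elsewhere. In zygotes each target was lower than in siCtrl where its siRNA had been given, Etv5 at a mean of 0.026 against 1.295 FPKM, Mlx at 0.304 against 3.24 and Rfx1 at 0.358 against 3.28. In 2-cell embryos Etv5 was at 7.27 against 45.9 and Rfx1 at 1.48 against 9.16 without overlap, while Mlx, at 2.38 against 3.53, overlapped siCtrl. Targets were also below all siCtrl libraries where another siRNA had been given, with Etv5 at 9.50 in siRfx1 2-cell embryos and Rfx1 at 1.16 in siMlx zygotes, 2.52 in siMlx and 4.67 in siEtv5 2-cell embryos. Markers of the oocyte and zygote summed to 2551 to 3032 FPKM in siCtrl zygotes and to 366 to 427 in siCtrl 2-cell embryos, and 2-cell markers to 18.5 to 36.3 and 409 to 554, with 2 of those 8 markers at 0 in every library. Of 11 cumulus and granulosa markers 6 to 8 were at 0 in every library of a group, and their sum stayed at or below 19.3 FPKM. The sum of 6 sperm and spermatid markers was 0 to 35.1 FPKM. In siRfx1 2-cell embryos the oocyte and zygote markers summed to 721 to 832 FPKM and the 2-cell markers to 166 to 248, so this group lay between the siCtrl stages by both lists.

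Chaperone transcripts made up 0.526 to 0.576% of all gene FPKM in siCtrl zygotes and 1.01 to 1.08% in siCtrl 2-cell embryos. Their summed FPKM was 2210, 2092 and 2130 in the 3 siCtrl zygote libraries and 4256, 4289 and 3958 in the 3 siCtrl 2-cell libraries. A few genes held most of it at either stage, and the leading gene differed. Hsp90aa1, the inducible cytosolic HSP90, led in siCtrl zygotes with 479 ± 46.3 FPKM (SD, n = 3), which was 22.3% of the member total. Dnajb9, an ER partner of BiP also known as ERdj4, led in siCtrl 2-cell embryos with 1042 ± 73.8 FPKM (SD, n = 3) and 25.0% of the total. The 10 highest members held 69.3% at the first stage and 70.1% at the second, and 5 of them, Hsp90aa1, Hsp90ab1, Dnaja2, Dnajb1 and Dnajb6, were among the highest at both. In all, 54 members averaged at least 1 FPKM in siCtrl zygotes and 69 in siCtrl 2-cell embryos.

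**Figure D1:**
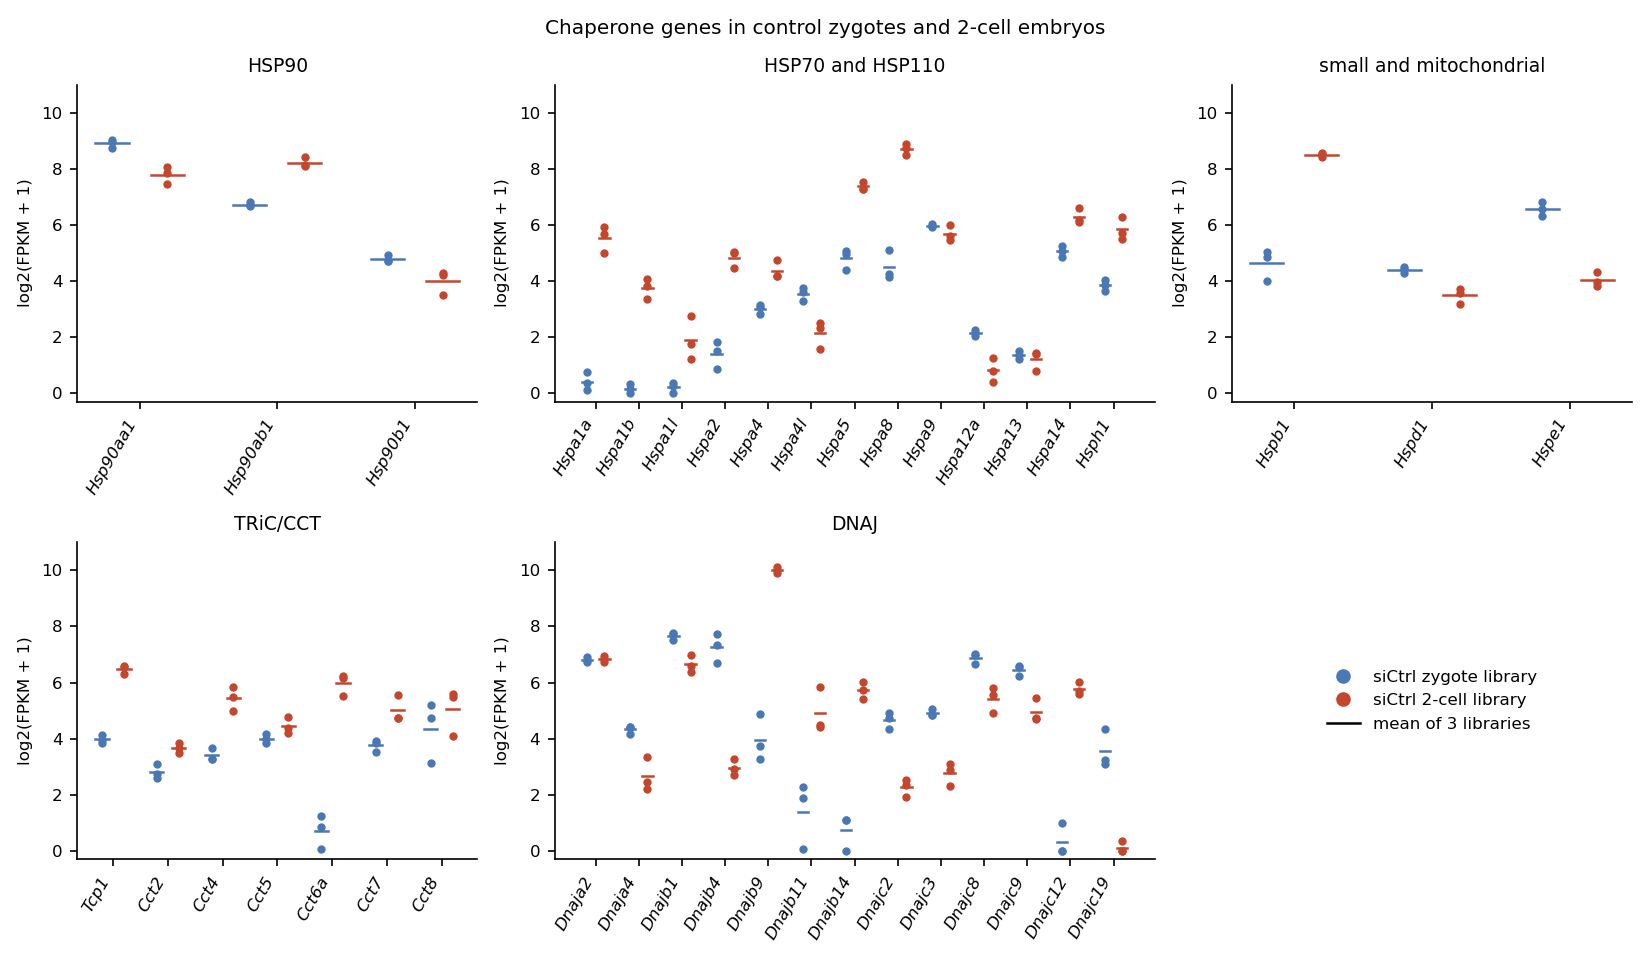
Levels of chaperone genes, grouped by role, in the siCtrl zygote (blue) and siCtrl 2-cell (red) libraries, as log2(FPKM + 1) of the deposited values, with 1 point a library and a line at the mean of the 3. Hsp90aa1 stood first in zygotes and Dnajb9 in 2-cell embryos.

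At the other end, 12 members were listed at 0 in every siCtrl zygote library, and Cct3, Dnajb8, Hspb2 and Hspb7 in all 23 libraries. Cct3 encodes a subunit of TRiC/CCT, so its 0 stands apart from those of Dnajb8, Hspb2 and Hspb7, which are known mainly from testis or muscle. The files also held a transcript without a gene name at chr3:88101038-88125689 (mm9, plus strand), 1977 bp long, which spans Cct3 at chr3:88101057-88125688, 1957 bp long. That transcript was listed at 16.7, 14.9 and 14.3 FPKM in siCtrl zygotes and at 48.5, 33.2 and 80.3 FPKM in siCtrl 2-cell embryos. The expression of the locus was thus listed under the unnamed model, and no value for Cct3 itself can be read from these files.

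Reads were assigned without regard to strand. Exons of 11 members share bases with another gene, among them Cct7 with Pradc1, Cct8 with Usp16, Tcp1 with Acat3, Dnajc14 with Ormdl2 and Dnajc19 with Fxr1, each on the opposite strand, and reads there cannot be told apart. Hspa1a and Hspa1b are near-identical copies, and the split of reads between them is uncertain. FPKM are relative to the total of a library, so a change in the RNA content of an embryo cannot be seen in them. The paper's libraries were made with oligo-dT, and the length of poly(A) tails was not measured.

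The first question was how chaperone transcripts changed from the zygote to the 2-cell embryo in controls, across the window in which the embryonic genome is activated. Of the 85 members, 68 had a mean of at least 1 FPKM over the compared libraries and were tested, 25 rose and 18 fell. A change here needed an adjusted p under 0.05 by limma and a fold above 2. Of all genes tested, 63.8% changed by this rule, 37% upward and 26.9% downward, so the share of members that changed was near that of all genes. The median log2 change was 0.40 over the tested members and 0.27 over all genes tested. The latter is 0.52 when FPKM are taken as deposited, without the rescaling of libraries used for the tests. Changes are on the scale of log2(rescaled FPKM + 1), which understates those of low genes, whereas values by library are given as deposited.

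**Figure D2:**
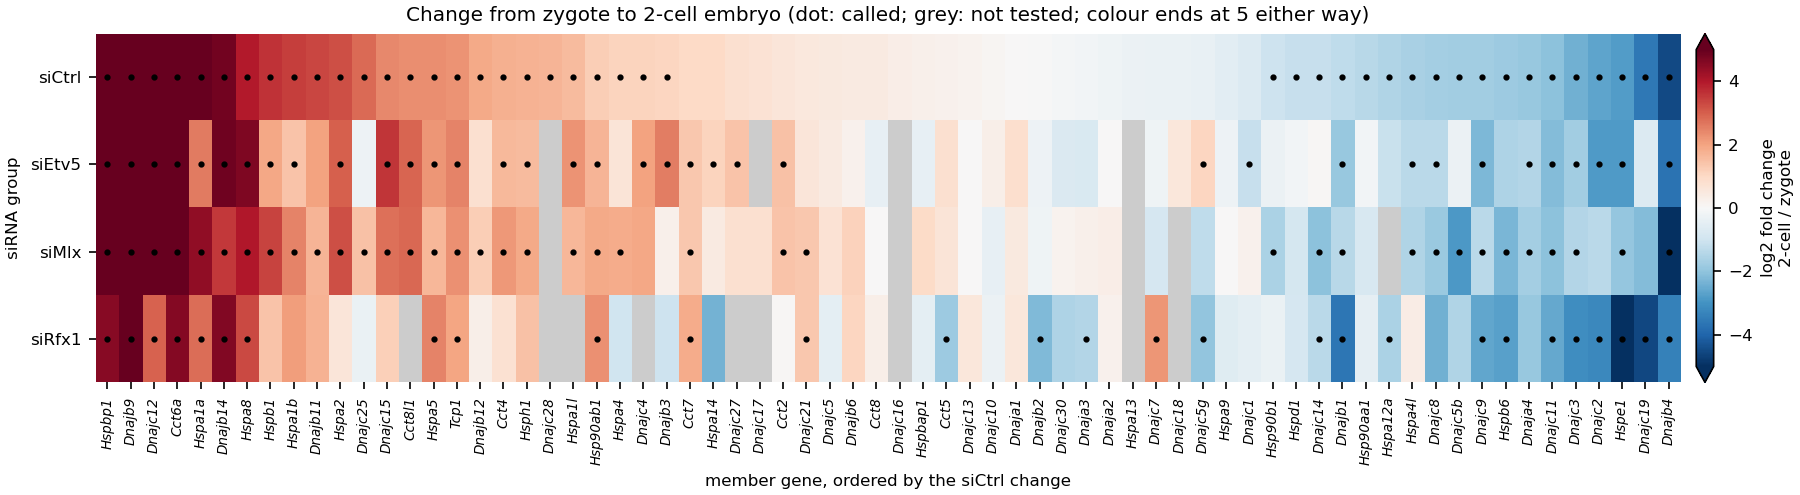
Log2 change from zygote to 2-cell embryo in the 4 siRNA groups (rows) of the 68 chaperone genes tested in siCtrl (columns), ordered by the siCtrl change, on the log2(rescaled FPKM + 1) scale. Red is a rise and blue a fall, with colours that end at 5 either way, a dot marks a change past the threshold and grey a gene not tested, and the columns run from Hspbp1 (5.82 in siCtrl) on the left to Dnajb4 (-4.53) on the right.

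HSP70 and HSP110 genes were mostly higher in 2-cell embryos. Their summed FPKM was 195, 179 and 176 in siCtrl zygotes and 942, 922 and 795 in siCtrl 2-cell embryos. Of 13 tested members 8 rose and 2 fell, where 37% of all genes rose and 26.9% fell. Their median log2 change was 1.60, against 0.27 over all genes tested.

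Hspa8, the constitutive cytosolic HSC70, was listed at 33.6, 18.0 and 16.7 FPKM in siCtrl zygotes and at 429.6, 471 and 356 in siCtrl 2-cell embryos. Its log2 change was 3.95 (SE 0.27, limma adjusted p = 9.9e-06), and every 2-cell library stood above every zygote library.

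Heat shock factors bind the heat shock element, searched in the 250 bases before the annotated start of each gene on either strand. In its 3-unit form, the units GAA, TTC and GAA with 2 bases between units, it stood in 88 of 22557 windows, which is 0.39%, and in 4 of those of the 85 members, which is 4.71%. Hspd1 and Hspe1 are among these 4, and their matches lie on the same bases of a shared stretch, counted for each gene. The shorter 2-unit form GAANNTTC, which is contained in the longer one, stood in 5.92% of all windows and in 14 members or 16.5%. The near-identical windows of Hspa1a and Hspa1b are counted separately. Of these members 13 were tested in the siCtrl stage comparison, 5 rose and 4 fell, where 37% of all genes rose and 26.9% fell. These matches describe letters in the window and no binding was measured. The windows printed here hold no annotated exon of the transcripts in the files, though GENCODE models of Hspd1, Hspe1, Hspa5 and Hsp90b1 begin inside theirs.

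The inducible HSP70 genes were near 0 in zygotes. Hspa1a was listed at 0.676, 0.0760 and 0.271 FPKM in siCtrl zygotes and at 60.1, 49.9 and 31.1 in siCtrl 2-cell embryos, a log2 change of 4.98 (SE 0.32, limma adjusted p = 8.3e-06). Hspa1b followed at 0, 0.244 and 0.109 FPKM and then 15.7, 9.13 and 13.2, a log2 change of 3.45 (SE 0.28). Neither gene overlapped between the stages. Both lie on the minus strand of chromosome 17, and their windows, chr17:35109102-35109351 and chr17:35096184-35096433, differ at 3 of 250 bases. The 2-unit element is in capitals.

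Hspa1a: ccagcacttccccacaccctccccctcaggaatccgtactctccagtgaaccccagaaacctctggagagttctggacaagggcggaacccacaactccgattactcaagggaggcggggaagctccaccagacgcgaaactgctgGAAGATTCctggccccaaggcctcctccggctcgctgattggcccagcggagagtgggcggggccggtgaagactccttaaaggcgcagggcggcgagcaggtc
Hspa1b: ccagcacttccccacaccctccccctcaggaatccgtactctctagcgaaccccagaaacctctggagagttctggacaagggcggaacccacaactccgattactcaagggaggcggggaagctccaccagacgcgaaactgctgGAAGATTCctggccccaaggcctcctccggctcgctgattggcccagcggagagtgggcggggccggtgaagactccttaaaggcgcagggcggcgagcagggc

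The testis-rich Hspa2 was listed at 2.53, 0.809 and 1.87 FPKM and then at 31.6, 30.5 and 20.9, a log2 change of 3.22 (SE 0.32). Hspa1l, a relative from the same gene cluster, reached only 1.33, 5.74 and 2.38 FPKM at the 2-cell stage with a log2 change of 1.60. Of the HSP110 genes, which act as exchange factors of HSP70, Hsph1 went from 13.6, 11.5 and 15.2 to 51.7, 44.2 and 77.2 FPKM, a log2 change of 1.75 (SE 0.24). Hspa4 rose by less, from 5.98, 7.81 and 7.37 to 25.8, 17.0 and 17.3 FPKM (1.13, SE 0.25, limma adjusted p = 0.0037). That call was lost without siCtrl zygote 1 (log2 change 0.99) or siCtrl 2-cell 1 (1.00). Hspa4l moved the other way, from 12.5, 11.1 and 8.85 to 4.62, 2.00 and 3.99 FPKM (-1.64), and so did the atypical Hspa12a, from 3.82, 3.14 and 3.42 to 0.713, 0.328 and 1.37 FPKM (-1.50).

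Among the HSP70 genes of organelles and the ribosome, Hspa5 stood out. Hspa5 encodes BiP, the HSP70 of the ER, and was listed at 32.3, 30.0 and 20.1 FPKM in siCtrl zygotes and at 185, 153 and 155 in siCtrl 2-cell embryos, a log2 change of 2.31 (SE 0.21). Mortalin of mitochondria, Hspa9, was listed at 60.2, 61.7 and 63.9 and then at 62.6, 43.0 and 47.8 FPKM, with overlapping libraries and a change of -0.54 that stayed under the fold. Hspa14, which sits on the ribosome with the J protein Dnajc2, was listed at 28.1, 32.8 and 37.0 and then at 71.7, 95.2 and 67.7 FPKM, a log2 change of 0.98 (limma adjusted p = 0.0032) just under the fold. Hspa13 had a change of -0.31 at under 2 FPKM in all these libraries, and Hspa12b was listed at 0 in all 6.

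The HSP90 genes did not change in 1 direction. Hsp90aa1 fell, from 515, 427 and 494 FPKM in siCtrl zygotes to 229, 174 and 264 in siCtrl 2-cell embryos (-1.38, SE 0.17, limma adjusted p = 1.8e-04). Its constitutive relative Hsp90ab1 rose, from 111, 102 and 99.96 to 271, 278 and 338 FPKM (1.23, SE 0.14, limma adjusted p = 1.2e-04). Neither gene overlapped between the stages, and the order of the pair turned over. Hsp90aa1 was the higher in each siCtrl zygote library and Hsp90ab1 the higher in each siCtrl 2-cell library. By group mean the order also turned over in siMlx and siRfx1 embryos. It did not in siEtv5 2-cell embryos, with 291 FPKM for Hsp90aa1 and 284 for Hsp90ab1. GRP94 of the ER, encoded by Hsp90b1, was listed at 25.0, 29.7 and 25.4 and then at 18.5, 10.3 and 17.5 FPKM (-1.04, SE 0.25, limma adjusted p = 0.0067), a call that was lost without siCtrl zygote 2 (just under the fold) or siCtrl 2-cell 2 (-0.74) and with FPKM as deposited (-0.79).

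Hspa5 and Hsp90b1 are textbook targets of the unfolded protein response and carry the same promoter element. It is the ER stress element, searched as CCAAT and CCACG with 9 bases between them, on either strand, and contains the CCAAT box, which alone stood in 35.3% of all windows and 37.6% of members. The whole element stood in 0.115% of all windows and in 3 members or 3.53%: Hspa5, Hsp90b1 and Dnajc3. The windows are chr2:34627360-34627609 on the plus strand for Hspa5 and chr10:86168190-86168439 on the minus strand for Hsp90b1, with the element in capitals.

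Hspa5: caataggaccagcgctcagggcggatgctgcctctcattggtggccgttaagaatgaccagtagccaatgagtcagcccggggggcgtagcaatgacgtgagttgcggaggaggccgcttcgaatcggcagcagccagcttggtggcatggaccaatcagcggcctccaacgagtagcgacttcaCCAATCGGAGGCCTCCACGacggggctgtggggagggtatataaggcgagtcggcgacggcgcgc
Hsp90b1: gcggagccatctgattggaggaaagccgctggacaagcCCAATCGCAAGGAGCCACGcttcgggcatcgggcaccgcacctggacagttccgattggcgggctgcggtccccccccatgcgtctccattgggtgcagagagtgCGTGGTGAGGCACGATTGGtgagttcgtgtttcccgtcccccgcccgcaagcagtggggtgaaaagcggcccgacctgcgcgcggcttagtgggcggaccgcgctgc

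Of the 3 genes that hold it, Hspa5 rose from zygote to 2-cell embryo, and Hsp90b1 and Dnajc3 fell. Dnajc3, an ER-resident J protein, was listed at 28.0, 28.0 and 32.6 FPKM in siCtrl zygotes and at 3.99, 7.65 and 6.35 in siCtrl 2-cell embryos (-2.39, SE 0.26).

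The chaperonin of mitochondria fell. HSP60 is encoded by Hspd1 and its lid HSP10 by Hspe1, which start 215 bases apart on opposite strands of chromosome 1 and share the stretch between them, chr1:55144777-55144991. It is printed on the plus strand, that of Hspe1, with overlapping 3-unit heat shock elements in capitals.

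Hspe1: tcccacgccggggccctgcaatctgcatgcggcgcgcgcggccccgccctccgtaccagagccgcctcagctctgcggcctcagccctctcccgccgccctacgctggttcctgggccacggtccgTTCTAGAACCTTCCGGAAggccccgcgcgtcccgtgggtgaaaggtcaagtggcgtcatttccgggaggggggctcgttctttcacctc

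Hspe1 was listed at 77.6, 112 and 94.7 FPKM in siCtrl zygotes and at 18.9, 13.1 and 14.5 in siCtrl 2-cell embryos (-2.78, SE 0.22, limma adjusted p = 2e-05). Hspd1 went from 21.4, 20.4 and 18.3 to 8.01, 10.8 and 12.1 FPKM (-1.15, SE 0.22, limma adjusted p = 0.0019). No library of one stage overlapped the other for either gene, but the Hspd1 change was under the fold without siCtrl 2-cell 1 (-0.94) and with FPKM as deposited (-0.91).

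TRiC/CCT gained, and unevenly. The ring is built from 8 different subunits in equal number, and the 10 genes of the family summed to 88.6, 66.7 and 92.1 FPKM in siCtrl zygotes and to 333, 307 and 269 in siCtrl 2-cell embryos. Of 8 tested genes 4 rose and none fell, where 37% of all genes rose and 26.9% fell. Their median log2 change was 1.39, against 0.27 over all genes tested. These tested genes are not the 8 subunits of the ring. They leave out Cct3 and include Cct8l1, which is no subunit of the ring and is among those that rose. By limma, 6 of the 8 tested genes had an unadjusted p under 0.05, as had 8253 of all 11123 genes tested.

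Cct6a was listed at the lowest values of the tested subunits in zygotes, 1.39, 0.813 and 0.0438 FPKM, and reached 75.0, 45.2 and 71.0 FPKM in 2-cell embryos, a log2 change of 5.08 (SE 0.37). Tcp1, which encodes the first-named subunit CCT1, went from 14.6, 16.4 and 13.4 to 93.8, 94.3 and 78.3 FPKM (2.26, SE 0.18). Cct4 went from 8.74, 8.63 and 11.8 to 56.2, 44.0 and 30.6 FPKM (1.78, SE 0.27). The stages did not overlap for any of these subunits. Cct7 came next, with 13.4, 14.3 and 10.5 and then 25.9, 45.5 and 25.8 FPKM, and its log2 change of 0.9985 (limma adjusted p = 0.012) was just under the fold.

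The remaining subunits changed by less. Cct2 was listed at 7.54, 5.68 and 5.11 and then at 10.2, 11.6 and 13.5 FPKM (0.62, limma adjusted p = 0.042), under the fold. Cct5 was listed at 17.0, 13.2 and 14.9 and then at 17.2, 19.6 and 26.2 FPKM (0.20, limma adjusted p = 0.44). Cct8 spread widely within both stages, at 25.7, 7.74 and 36.2 and then 47.1, 43.6 and 16.2 FPKM, and its log2 change of 0.45 (SE 0.59, limma adjusted p = 0.51) turned to -0.21 without siCtrl zygote 2. In siCtrl zygotes the subunits thus ran from near 0 for Cct6a to 36.2 FPKM for Cct8 in 1 library. In 2-cell embryos Tcp1 and Cct6a were highest and Cct2 lowest of the 7 subunits with a value. Of the other 2 genes of the family, Cct8l1 went from 0.199, 0 and 0 to 7.06, 1.82 and 7.32 FPKM with a log2 change of 2.33, and Cct6b, known from testis, was listed at 0 in every siCtrl zygote.

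**Figure D3:**
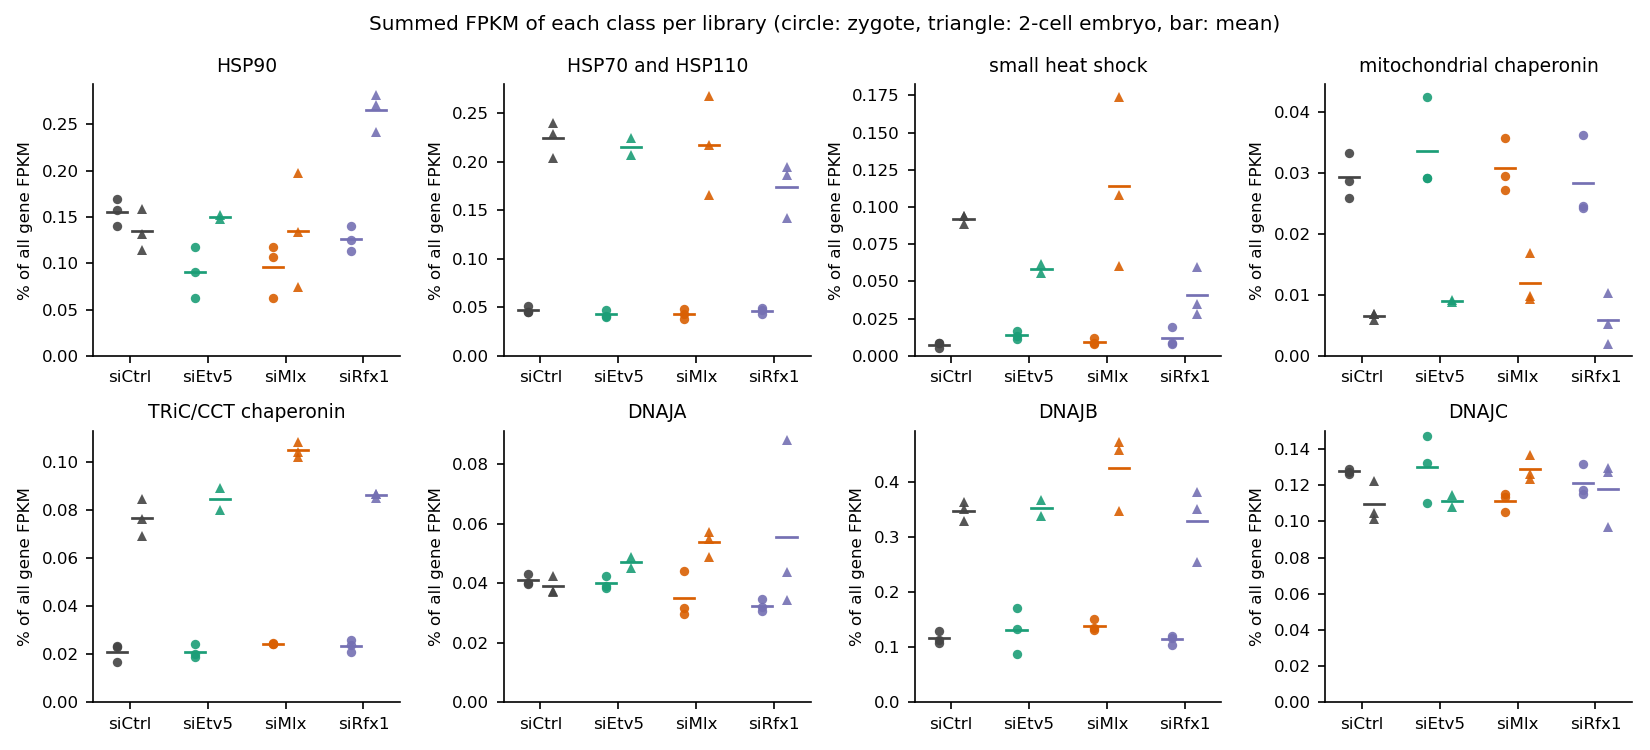
Summed FPKM of each chaperone family as a percentage of all gene FPKM, by siRNA group, with 1 point a library (circle for zygotes, triangle for 2-cell embryos), a bar at the group mean, and an axis of its own from 0 in each panel. The HSP70 and HSP110, TRiC/CCT, DNAJB and small heat shock sums stood higher in siCtrl 2-cell embryos than in siCtrl zygotes and the sum of the mitochondrial chaperonin lower in every library.

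The small heat shock genes, whose products hold unfolding proteins without ATP, were represented by 1 gene at any height. Hspb1, mouse HSP25, was listed at 15.0, 31.3 and 28.0 FPKM in siCtrl zygotes and at 364, 379.7 and 343 in siCtrl 2-cell embryos, a log2 change of 3.63 (SE 0.28). Hspb6 was the other tested gene, with 4.05, 3.95 and 5.28 and then 3.10, 0 and 0.207 FPKM (-1.81, SE 0.51). The family summed to 19.6 to 35.3 FPKM in siCtrl zygotes and to 346 to 380 in 2-cell embryos.

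The J-domain families held rises and falls side by side. In DNAJB 5 of 9 tested genes rose and 2 fell, in DNAJC 5 of 25 rose and 8 fell, and in DNAJA 1 of 4 fell and none rose. Of all genes tested, 37% rose and 26.9% fell. The DNAJA gene that fell was also the only one of the 4 with an unadjusted p under 0.05 by limma. Over all genes, 8253 of 11123 tested had one. Summed FPKM went from 425 to 495 up to 1283 to 1430 in DNAJB, from 489 to 508 to 396 to 494 in DNAJC, and from 157 to 165 to 144 to 172 in DNAJA.

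Dnajb9 alone accounted for most of the DNAJB sum at the 2-cell stage. Its values were 28.4, 12.2 and 8.74 FPKM in siCtrl zygotes and 1120, 1038 and 968 in siCtrl 2-cell embryos, a log2 change of 5.81 (SE 0.36, limma adjusted p = 7.4e-06). Other J proteins of the ER rose with it. Dnajb11, the secreted BiP partner ERdj3, went from 2.67, 0.0394 and 3.81 to 21.3, 55.9 and 20.5 FPKM (3.33, SE 0.64). Dnajb14, anchored in the ER membrane, went from 1.15, 0 and 1.13 to 51.7, 64.2 and 41.9 FPKM (4.83, SE 0.37), and its relative Dnajb12 had a log2 change of 1.89. In contrast Dnajc3 fell, as described above, and Dnajc10, the ER disulfide reductase ERdj5, had a log2 change of 0.09 (limma adjusted p = 0.78).

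Among the cytosolic J proteins, Dnajb4 went from 209, 162 and 102 to 5.48, 8.57 and 6.58 FPKM (-4.53, SE 0.29, limma adjusted p = 8.3e-06), the largest fall of any member. Dnajb1, the classical HSP40 that works with cytosolic HSP70, went from 181, 217 and 212 to 81.3, 126 and 94.9 FPKM (-1.28, SE 0.20). Both were among the 3 highest members in siCtrl zygotes. Dnaja4 fell as well (-1.90), whereas Dnaja2 was listed at 119, 111 and 104 and then 114, 122 and 106 FPKM (-0.22, limma adjusted p = 0.20) and Dnajb6 had a log2 change of 0.47 (limma adjusted p = 0.0997).

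DNAJC genes work in many compartments. Of those in mitochondria, Dnajc11 fell from 34.2, 32.0 and 32.6 to 3.90, 10.8 and 14.1 FPKM (-2.07, SE 0.39). Dnajc19, a J protein of the import motor, went from 7.64, 8.36 and 19.3 to 0.276, 0 and 0 FPKM (-3.57), with Fxr1 on the opposite strand of its exons. Dnajc15, a relative of Dnajc19 in the same membrane, went the other way, from 7.11, 2.64 and 3.71 to 20.4, 48.1 and 29.8 FPKM (2.40). In the nucleus and cytosol, Dnajc9, a histone chaperone, fell by 1.76 on the log2 scale, Dnajc8, found with splicing factors, by 1.71 and Dnajc2, which partners Hspa14 on the ribosome, by 2.62. Dnajc2 was listed at 19.3, 25.9 and 29.2 and then at 4.80, 2.83 and 4.04 FPKM, so that of this pair Hspa14 was higher and Dnajc2 lower in every 2-cell library. Dnajc14 fell by 1.16 with Ormdl2 opposite, a call that was lost with FPKM as deposited (-0.92). Dnajc5b, known mainly from testis, was called with overlapping libraries, at 7.70, 4.90 and 1.85 and then 0, 0.402 and 2.75 FPKM (-1.75, SE 0.57).

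A few further genes rose from low values in zygotes. Hspbp1, an exchange factor for HSP70 that matched by name only, went from 0.970, 0 and 0 to 65.5, 99.2 and 70.6 FPKM (5.82), the largest change of any member. Dnajc12 went from 0.997, 0 and 0 to 50.9, 63.1 and 47.8 FPKM (5.29), with an unnamed transcript over some of its exon bases. Dnajc25 went from 1.00, 2.11 and 1.10 to 25.0, 9.91 and 23.5 FPKM (2.82, SE 0.39).

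The partners of these chaperones in control embryos are given here from lists of known genes. Their counts stand against 37% of all genes tested that rose in this comparison and 26.9% that fell. Of 5 tested heat shock factors and their regulators 1 rose and 3 fell, with a median log2 change of -1.44. Hsf1, the master regulator of the heat shock response and a maternal-effect gene, had a rescaled mean of 55.4 FPKM in zygotes and 75.2 in 2-cell embryos and was not called (0.43, limma adjusted p = 0.10). Hsf2 rose from 1.36 to 3.92 FPKM (1.03), and Hsf5, known from the germ line, fell from 16.9 to 0.587 FPKM (-3.53). Hsbp1, which binds heat shock factors, fell from 174 to 49.4 FPKM (-1.81), and Hsf2bp from 30.9 to 10.8 FPKM (-1.44).

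HSP90 cochaperones were mixed, with 5 of 18 tested genes higher, 3 lower and a median log2 change of 0.42. Fkbp4, an immunophilin of steroid receptor complexes, rose from a rescaled mean of 10.4 to 186 FPKM (4.03), and Trap1, the HSP90 of mitochondria, from 0.132 to 4.33 FPKM (2.23). Nudc, a cochaperone linked to dynein, fell from 384 to 83.0 FPKM (-2.20). Of 11 tested HSP70 cochaperones 5 rose and 2 fell, with a median of 1.39. Bag3, which links HSP70 to small heat shock proteins and autophagy, rose from 0.685 to 54.5 FPKM (5.06), the ER gene Sdf2l1 from 8.11 to 95.97 FPKM (3.50) and Bag5 from 10.7 to 128 FPKM (3.47).

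Prefoldin is the complex that hands actin and tubulin to TRiC/CCT. Of 8 tested prefoldin and cofactor genes 2 rose and 4 fell, with a median log2 change of -0.93. Pfdn4 fell from 191 to 11.3 FPKM (-3.96), Pfdn1 from 20.5 to 4.47 FPKM (-2.15) and Pfdn5 from 105 to 33.2 FPKM (-1.65). The 2 that rose were Pdcl, from 7.74 to 23.7 FPKM (1.52), and Vbp1, from 20.0 to 53.9 FPKM (1.44). Pfdn2, at 52.4 and then 88.6 FPKM, was not called (0.76), so the list did not change in 1 direction. Of 13 tested genes for TRiC/CCT substrates 4 rose and 4 fell, with a median of 0.84: Tuba1a rose from 6.65 to 43.3 FPKM (3.17) and Tubb5 from 22.7 to 203 FPKM (3.11), while Tubb2b fell from 30.6 to 3.79 FPKM (-3.16). Among 16 tested genes of ER folding and the unfolded protein response 5 rose and 2 fell, with a median of 0.82. P4hb, a disulfide isomerase, rose from 6.72 to 184 FPKM (4.59) and Manf from 13.7 to 119 FPKM (3.08), and the stress sensor Ern1 fell from 27.9 to 8.40 FPKM (-1.64).

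**Figure D4:**
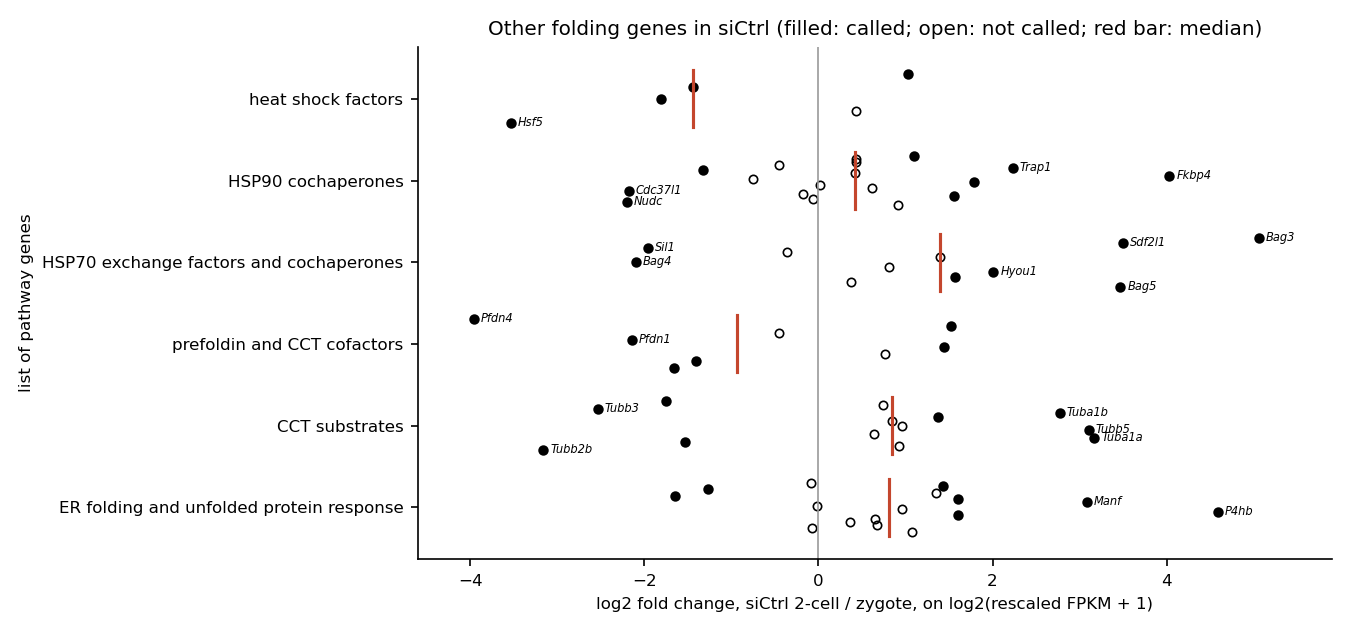
Log2 change from control zygotes to control 2-cell embryos of the tested genes in 6 lists of chaperone partners, 1 point a gene, filled where the change passed the threshold and open where it did not, with a red bar at the list's median. The prefoldin list had a median of -0.93 and the HSP70 cochaperones one of 1.39, against 0.27 over all genes tested.

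The stage change was next read in the 3 knockdown (KD) groups, each fitted on its own zygote and 2-cell libraries. In siEtv5 embryos 26 of 65 tested members rose and 11 fell, where 60.9% of all genes changed (37.9% upward, 23% downward). In siMlx embryos 25 of 64 rose and 13 fell, where 64.5% of all genes changed (35.4% upward, 29.2% downward). In siRfx1 embryos 13 of 59 rose and 15 fell, where 48.4% of all genes changed (18.7% upward, 29.7% downward) and the all-gene median was -0.24. With FPKM as deposited 17 rose and 12 fell in siRfx1 embryos. The siEtv5 count of 37 dropped to 20 without either 2-cell library of that group.

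The 4 stage comparisons share no library. Of 58 members tested in all of them 10 rose in each, or 17.2%, and 6 fell in each, or 10.3%. Over 9265 genes tested in all of them the shares were 16.4 and 15.7%. The 10 were Cct6a, Tcp1, Hsp90ab1, Hspa1a, Hspa5, Hspa8, Dnajb9, Dnajb14, Dnajc12 and Hspbp1, and the 6 were Dnajb1, Dnajb4, Dnajc3, Dnajc9, Dnajc11 and Hspe1. Dnajb9 had a log2 change of 5.81 in siCtrl, 5.92 in siEtv5, 5.77 in siMlx and 5.68 in siRfx1 embryos. Hspa8 had 3.95, 4.67, 3.99 and 3.31 in the same order, and Hspa1a 4.98, 2.60, 4.43 and 2.77. Among the falls, Hspe1 had -2.78, -2.83, -1.95 and -5.01, and in siRfx1 2-cell embryos it was listed at 2.84, 9.76 and 0 FPKM.

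The second question was whether the KDs altered chaperone transcripts at either stage. The 3 KD groups of a stage share the same siCtrl libraries, so these comparisons are not independent of each other. In zygotes no member changed in siEtv5 (54 tested, 7 with an unadjusted p under 0.05, 0% of all genes called by limma) or in siRfx1 (56 tested, 6 with an unadjusted p under 0.05, 0.0555% of all genes called by limma). Over all genes, an unadjusted p under 0.05 by limma was found for 1119 of 9008 tested in siEtv5 and 1311 of 9001 in siRfx1 zygotes. The median log2 difference over tested members was 0.05 in siEtv5 and 0.17 in siRfx1 zygotes, against -0.01 and 0.00 over all genes.

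In siMlx zygotes 1 of 55 tested members fell, where 2.15% of all genes changed (1.13% upward, 1.02% downward), and the members' median was 0.21 against 0.03. The member was Dnajc11, which bridges the mitochondrial membranes, listed at 11.6, 8.75 and 13.8 FPKM against 34.2, 32.0 and 32.6 in siCtrl zygotes. Its log2 difference of -1.14 (SE 0.20, limma adjusted p = 0.0385) rested on groups that did not overlap, but the call was lost without siCtrl zygote 1, 2 or 3 or siMlx zygote 1, where the adjusted p was 0.101 to 0.163. Dnajc11 was also listed at 12.4, 22.0 and 22.6 FPKM in siRfx1 zygotes, below each siCtrl library, and at 38.8, 26.3 and 15.7 FPKM in siEtv5 zygotes. Cct4 in siMlx zygotes, at 19.6, 28.9 and 12.7 FPKM against 8.74, 8.63 and 11.8, was not called (1.26, limma adjusted p = 0.067). Nor was any HSP90 gene. The HSP90 genes summed to 437, 253 and 488 FPKM in siMlx zygotes and to 370, 462 and 254 in siEtv5 zygotes. Each sum lay below the 651, 559 and 619 FPKM of siCtrl zygotes. With FPKM as deposited, the all-gene median log2 difference was -0.27 in siMlx and -0.16 in siEtv5 zygotes.

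In siEtv5 2-cell embryos none of 70 tested members was called, where 0.251% of all genes were called by limma. An unadjusted p under 0.05 by limma was found for 6 members and for 1731 of all 11172 genes tested. Among members the lowest p-values were those of Hspa1a, Hspb1 and Hspa1b. Hspa1a was listed at 14.3 and 8.69 FPKM against 60.1, 49.9 and 31.1 in siCtrl (-1.92, SE 0.35, limma adjusted p = 0.093), and Hspa1b at 3.92 and 4.05 FPKM against 15.7, 9.13 and 13.2 (-1.42, SE 0.35, limma adjusted p = 0.15). Hspb1 was listed at 234 and 217 FPKM against 364, 379.7 and 343 (-0.67, SE 0.13, limma adjusted p = 0.096). For each of these genes both siEtv5 libraries lay below all 3 controls. The 2-cell markers summed to 847 and 1043 FPKM in these libraries against 409 to 554 in siCtrl and the oocyte and zygote markers to 562 and 579 against 366 to 427, and the part of either in these values was not tested.

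In siMlx 2-cell embryos none of 63 tested members was called, where 0.00945% of all genes were called by limma. An unadjusted p under 0.05 by limma was found for 12 members and for 1982 of all 10586 genes tested. The summed FPKM of all members was 5107, 5030 and 4667, above the siCtrl range. Cct4 was listed at 194, 103 and 77.7 FPKM against 56.2, 44.0 and 30.6 (1.69, SE 0.49, limma adjusted p = 0.15). Dnajc2 was listed at 36.5, 16.1 and 10.4 FPKM against 4.80, 2.83 and 4.04 (2.24, SE 0.56, limma adjusted p = 0.13), Hspa2 at 79.8, 53.2 and 54.6 FPKM against 31.6, 30.5 and 20.9 (1.40) and Hspe1 at 62.6, 29.0 and 26.5 FPKM against 18.9, 13.1 and 14.5 (1.45). These genes were chosen after their values were seen, and in each siMlx 2-cell 1 was the highest. That library had the lowest depth outside the siRfx1 2-cell group, 404 Mb. In it 8904 genes reached 1 FPKM, against 10567 to 10729 in siCtrl 2-cell libraries, and the part of its depth in these values was not tested. The 2-cell markers summed to 94.0 to 328 FPKM in this group and the oocyte and zygote markers to 155 to 284, both below the siCtrl ranges given above, and their part in these values was not tested.

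In siRfx1 2-cell embryos 3 of 62 tested members rose and none fell, where 3.58% of all genes changed (2.13% upward, 1.45% downward). The all-gene median was -0.25, and -0.85 with FPKM as deposited, and the members' median was -0.21. Dnajc7, a J protein with tetratricopeptide repeats that binds both HSP70 and HSP90, was listed at 47.2, 70.5 and 69.9 FPKM against 9.49, 8.16 and 12.3 in siCtrl (3.19, SE 0.42, limma adjusted p = 0.0145). In the other 20 libraries it stayed between 8.16 and 18.8 FPKM. Hsp90ab1 was listed at 455, 493 and 406 FPKM against 271, 278 and 338 (1.32, SE 0.20, limma adjusted p = 0.0223), and Hsp90aa1 at 273, 346 and 472 FPKM against 229, 174 and 264 (1.40, SE 0.29, limma adjusted p = 0.0442). The groups did not overlap in any of these genes.

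The count rested on the scaling and on single libraries. With FPKM as deposited 9 members were called, 1 higher and 8 lower, the higher one being Dnajc7, and none was called without siCtrl 2-cell 1, 2 or 3, while 5 rose without siRfx1 2-cell 1. The differences of Hsp90aa1 and Hsp90ab1 were 0.69 and 0.61 as deposited and were not called. The lower depth of this group and its marker levels, given above, moved with these results, and their part in them was not tested.

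**Figure D5:**
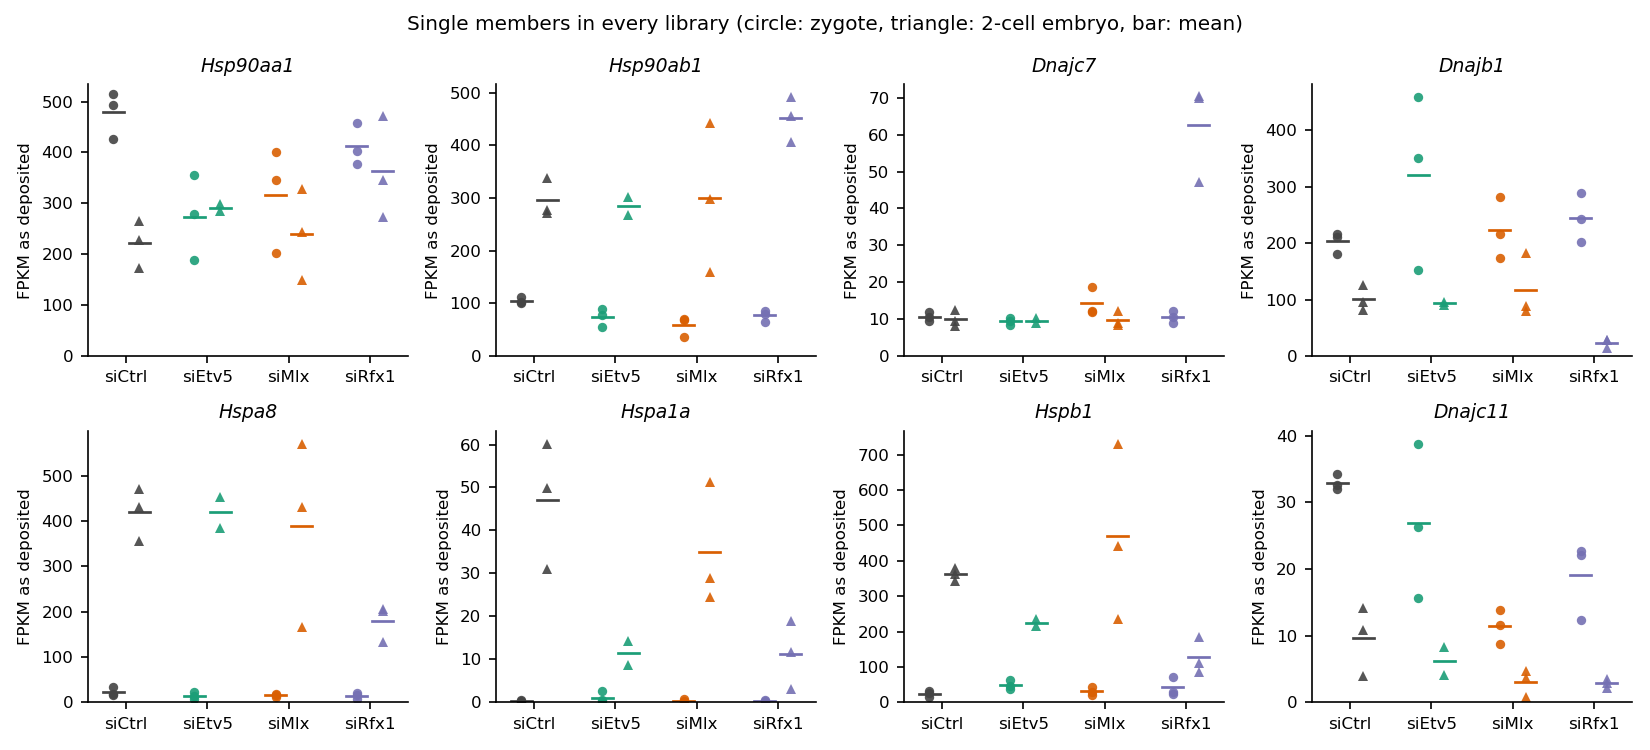
FPKM as deposited of 8 chaperone genes by siRNA group, with 1 point a library (circle for zygotes, triangle for 2-cell embryos), a bar at the group mean, and an axis of its own from 0 in each panel. Dnajc7 stood between 47.2 and 70.5 in the siRfx1 2-cell libraries and at or below 18.8 in all others, and Hspa1a was lower in both siEtv5 than in all siCtrl 2-cell libraries.

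Whether the stage change itself differed from controls was tested as an interaction. For siEtv5, 1 of 68 tested members differed, downward, where 0.315% of all genes did (0.0991% upward, 0.216% downward). It was Dnajc25, listed at 4.15, 6.51 and 4.01 FPKM in siEtv5 zygotes and at 6.84 and 3.08 in siEtv5 2-cell embryos, so that its stage change was below that of controls (-3.21, limma adjusted p = 0.0444). That call was lost on leaving out any of 8 of the 11 libraries. For siMlx none of 68 tested members differed, where 1.17% of all genes were called by limma. An unadjusted p under 0.05 by limma was found for 3 members and for 1742 of all 10814 genes tested.

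For siRfx1, 8 of 64 tested members differed, 3 upward and 5 downward, where 9.94% of all genes did (3.02% upward, 6.93% downward) and the all-gene median was -0.40. The upward ones were those that rose in siRfx1 2-cell embryos, with interactions of 2.80 for Dnajc7 (limma adjusted p = 0.0034), 1.34 for Hsp90ab1 (0.0073) and 1.19 for Hsp90aa1 (0.032). Hsp90aa1, which fell in controls, was listed in siRfx1 at 377, 458 and 403 FPKM in zygotes and 273, 346 and 472 in 2-cell embryos. Its stage change was not called in siEtv5 or siMlx embryos either. The means there were 274 FPKM in siEtv5 zygotes and 291 in siEtv5 2-cell embryos, and 316 and 241 in siMlx. Downward, Dnajb1 fell further than in controls, from 203, 242 and 289 to 14.1, 29.0 and 27.4 FPKM (interaction -2.08, limma adjusted p = 0.012).

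The other downward interactions were in Hspa2 (-2.31), Hspa4 (-1.89), Dnajc25 (-2.89) and Dnajb2 (-2.16). Hspa2 was listed at 5.44, 15.4 and 8.60 FPKM in siRfx1 2-cell embryos and Hspa4 at 2.79, 6.24 and 5.15, each below all 3 siCtrl libraries. Dnajc25 was listed at 1.77, 1.36 and 4.51 FPKM there, and Dnajb2, a proteasome-linked J protein, at 0 in all 3, against 1.95, 6.15 and 3.58 in siCtrl. The interactions of Hsp90aa1, Hspa2, Hspa4, Dnajc25 and Dnajb2 were each lost on leaving out 1 of several libraries, and the number of differing members was 3 to 18 over the libraries left out, and 2 upward and 9 downward with FPKM as deposited. Those of Dnajc7, Hsp90ab1 and Dnajb1 were kept whichever library was left out.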

How the data were processed

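RNA-seq libraries were made from blastomeres of injected embryos by reverse transcription and amplification of cDNA. The authors deposited a transcript file per library with the FPKM and coverage of each transcript, obtained with StringTie from STAR alignments to mm9 and RefSeq transcripts (STAR 2.5.2b and StringTie 1.3.4 per the submitters' processing notes). Read counts were not used here, so no count model was fitted. Of 29306 transcripts per file, those of the same gene name were summed, which gave 22619 genes. Another 976 transcripts had no gene name, held 0.610 to 1.48% of the FPKM and were left out. The aligned bases of a library were taken from the median ratio of deposited coverage to FPKM over its transcripts above a minimum FPKM.

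Groups were taken from the sample titles. Libraries in a comparison were brought to 1 scale with the median ratio of FPKM, taken over genes that reached 1 FPKM in each of these libraries. Genes whose rescaled mean was 1 or higher were tested with limma 3.58.1 in R 4.3.3 on log2(rescaled FPKM + 1), with a mean-variance trend and Benjamini-Hochberg adjustment over all genes tested. Calls needed a fold above 2 and an adjusted p under 0.05. The procedure was also run on simulated data with changes well above 2-fold and the same spread in both groups. That run does not cover changes near the threshold, low genes or groups of unequal spread. FPKM of low genes have few reads behind them, and the siRfx1 2-cell libraries were the shallowest. The settings varied were the pseudocount (0.1), the filter (none, or a mean of 5), the rescaling (FPKM as deposited), the fold minimum (none), the libraries in the fit (all 23), a block for the replicate number, the control (siEtv5 in place of siCtrl) and the libraries left out 1 at a time. A filter on the mean as deposited, and the unnamed Cct3 transcript added to Cct3, were chosen after seeing the data.

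Members, lists of partners and markers, and motifs were chosen with earlier results of these data known. TRiC/CCT, HSP90, HSP70 and HSP110 genes, the chaperonins of mitochondria and Hspb1 were named whatever their values. Of the remaining members, the rule named the 12 largest rises and the 12 largest falls called in siCtrl with a mean of at least 5 FPKM in 1 group, up to 4 each way in every other comparison, up to 3 genes of each list, and genes that were highest, lowest or undetected in their class. Dnajb6, Dnajc10, Hsf1, Hsf2, Pdcl, Vbp1 and Pfdn2 fall outside it and were chosen after their values were seen. So were the members shown without a call in the KD comparisons. Promoter windows were read from the reference genome of the same build, NCBIM37 (mm9), upstream of the starts in the files. 1 promoter window is not reported here. Python 3.11.15 was used with pandas 2.3.3, numpy 2.4.6 and matplotlib 3.10.9.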

Additional observations from a re-analysis of the deposited data

Results flagged for a closer look

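The change from zygote to 2-cell embryo differed from that of siCtrl in 9 cases, by the limma interaction test with the threshold used for calls. On the log2 scale the stage change of Dnajc25 was lower in siEtv5 by an interaction of -3.21. In siRfx1 the interaction was positive for Dnajc7 (2.80), Hsp90ab1 (1.34) and Hsp90aa1 (1.19). It was negative for Dnajc25 (-2.89), Hspa2 (-2.31), Dnajb2 (-2.16), Dnajb1 (-2.08) and Hspa4 (-1.89). The siEtv5 and siRfx1 contrasts share the siCtrl libraries, so the 2 results for Dnajc25 are not independent.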

How the results depend on the processing

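FPKM without counts, 3 or 2 libraries a group and the depth of the siRfx1 2-cell libraries limit what could be detected, and the cause of the shifts below was not tested. The stage counts in siCtrl (43), siEtv5 (37), siMlx (38) and siRfx1 (28) moved by less than 1.5 times under every alternative other than leaving out a library. In siMlx zygotes the count of 1 became 0 with no filter, with all 23 libraries in 1 fit and with siEtv5 as the control, 2 with FPKM as deposited and 3 with a mean of at least 5. In siMlx 2-cell embryos the count of 0 became 3 with all 23 libraries in 1 fit. In siRfx1 2-cell embryos the count of 3 became 6 with a pseudocount of 0.1, 1 with no filter, 9 with FPKM as deposited, 21 with all 23 libraries in 1 fit and 0 with siEtv5 as the control. The siEtv5 interaction of 1 became 0 with a pseudocount of 0.1, with FPKM as deposited and with all 23 libraries in 1 fit.

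Over the libraries left out in turn, counts were 37 to 44 for the stage change in siCtrl, 20 to 39 in siEtv5, 33 to 40 in siMlx and 21 to 34 in siRfx1. They were 0 to 1 in siMlx zygotes, 0 to 2 in siMlx 2-cell embryos (2 without siMlx 2-cell 3), 0 to 5 in siRfx1 2-cell embryos, 0 to 5 for the siEtv5 interaction (3 and 5 without siEtv5 zygote 1 and 2) and 3 to 18 for the siRfx1 interaction (15 and 18 without siRfx1 2-cell 1 and 2), and 0 throughout in the other 4 comparisons. A 2-cell group left with 1 library was assumed to vary like the group it was compared with. Of single genes, 1 value changed sign, that of Cct8, which ran from -0.21 (without siCtrl zygote 2) to 0.98 (without siCtrl 2-cell 3). Over the named values of single genes and all alternatives, 1769 kept their direction and side of the threshold, 137 lost it and 14 gained it. With the unnamed transcript added to Cct3, the stage counts were 44 in siCtrl and 38 in siEtv5.

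Same-numbered libraries did not deviate together, with correlations of -0.13 to 0.27, so the numbers were not taken to pair them. With the replicate number as a block, the stage counts were 43, 41, 42 and 24, the siMlx zygote count 0, the siRfx1 2-cell count 1, and the siEtv5 and siRfx1 interaction counts 0 and 6.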
